A study of Mus musculus with 12 samples.

Results

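The 35 genes described here encode the folding machinery of the endoplasmic reticulum (ER), the translocon through which new proteins enter it, the factors that remove misfolded proteins from it, and the sensors of the unfolded protein response (UPR). They were taken by gene symbol from a list of names, whose rule uses no measured value but which was drawn up with earlier results of these data known, and all 35 were matched to an Ensembl identifier among the 56748 genes counted (Ero1l is the older symbol of Ero1a). All 35 passed the filter on low counts that left 18438 genes for testing, and the lowest count of any member in any library was 405.

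The libraries were bulk RNA-seq of donor-derived CD45.2+ Lin-Sca+Kit+ bone marrow (BM) cells, the compartment that holds haemopoietic stem and multipotent progenitor cells, from a transplantable mouse model of chronic myeloid leukaemia (CML). B6.SJL recipients (CD45.1) aged 8 to 12 weeks were given 2 doses of 4.25 Gy, 3 h apart, and then BM of SCLtTA/BCR-ABL double transgenic (DTG) mice. Every recipient drank tetracycline (TET), which holds BCR::ABL1 off, for 2 weeks after transplant. TET was then stopped for 2 weeks in the CML group (BCR::ABL1+, 6 libraries) and kept on in the CTRL group (BCR::ABL1-, 6 libraries). Both groups thus carried both transgenes, with the transactivator under Scl control, and both were irradiated, engrafted from a frozen pool of DTG marrow and given TET. The human transgene is not among the mouse genes counted, so its induction was not checked here. The labels call the 6 CTRL libraries male and the 6 CML libraries female, so that the label of sex and the group cannot be told apart, and Xist, which is transcribed from the inactive X chromosome, was at 3794 to 4425 CPM in the CTRL libraries and 2183 to 3502 CPM in the CML libraries, against the male label. The labels do not say whether a library is 1 mouse, so p-values measure the spread between these libraries.

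Depth was 22804754 to 41832868 counts per CTRL library and 16150817 to 25070105 per CML library (exact two-sided permutation test, p = 0.0108), and levels are given as CPM, the counts scaled to a common library size with factors from the trimmed mean of M values (TMM). Mitochondrial genes took 0.816 to 1.29% of counts in CTRL and 2.26 to 2.97% in CML libraries (exact permutation p = 0.00216, the smallest this design can give). Replicates were further apart in the CML group, where the biological variation fitted by edgeR was 32.6%, than in the CTRL group, where it was 10.8%. All 9 markers of the sorted compartment were detected, with Kit at 681 to 800.0 CPM and 323 to 522 CPM, and 7 of the 9 were lower in CML, while 5 of 7 mast cell and basophil markers were higher, their summed level being 76.4 to 166 CPM in CTRL and 390 to 2273 CPM in CML libraries. Of all tested genes, 29% were lower and 30.6% higher. Stromal collagen genes stood out in CML replicates 2 and 4 (summed stromal list 759.9 and 311 CPM, against 63.8 to 100.3 CPM in the other 10 libraries).

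Proteins bound for secretion, lysosomes, granules or the plasma membrane pass through the Sec61 channel into the ER, where Hsp70 and Hsp90 chaperones, lectin chaperones and disulphide isomerases fold them. When unfolded proteins build up, the sensors Ire1 (encoded by Ern1), Perk (Eif2ak3) and Atf6 start the UPR: Ire1 splices the Xbp1 transcript, Perk phosphorylates the initiation factor eIF2alpha, and Atf6 is cut in the Golgi to release a transcription factor. Spliced Xbp1 and cleaved Atf6 raise chaperone and degradation genes, and the ER stress response element (ERSE) is the promoter sequence best known for that control. Gene-level counts measure the summed transcript of each gene and hold neither Xbp1 splicing nor the phosphorylation or cleavage of a sensor.

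The ERSE is shown first because it is the sequence that ties several of these genes together. Windows of 250 bases before to 50 bases after the transcription start (RefSeq, GRCm38.p6) were held for 29 of the 35 members, and both strands were searched for the exact letters CCAAT and CCACG held 9 bases apart (ERSE), ATTGG and CCACG held 1 base apart (ERSE-II) and TGACGTGG (the UPR element, UPRE); ERSE and ERSE-II share the half-site CCACG, which the UPRE also holds on its other strand. No window was held for Atf6, Hyou1, Manf, Derl1, Sec61a1 or Ssr2. The ERSE was found in 8 of 29 members (27.6%) and in 35 of all 27025 windows (0.13%), the ERSE-II in 2 members (6.9%) and 10 windows (0.037%), and the UPRE in 0 members and 164 windows (0.607%). Several members are on such lists because they are known UPR targets, so that these shares describe the list and are not independent evidence. The matches follow as they read 5′ to 3′ on the gene's strand, with the fixed letters in capitals and positions counted from the start, where -1 is the last base before it.
Hspa5 (-65 to -47): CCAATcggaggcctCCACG
Hsp90b1 (-212 to -194): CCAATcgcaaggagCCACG
Hsp90b1 (-107 to -89, reverse orientation): CGTGGtgaggcacgATTGG
Dnajc3 (-105 to -87): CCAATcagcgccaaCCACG
Creld2 (-126 to -108, reverse orientation): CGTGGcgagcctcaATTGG
Calr (-162 to -144, reverse orientation): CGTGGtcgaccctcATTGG
Canx (-145 to -127): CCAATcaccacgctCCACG
Pdia6 (-98 to -80): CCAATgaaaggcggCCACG
Syvn1 (-44 to -26): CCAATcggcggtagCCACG
Herpud1 (ERSE-II, -52 to -42): ATTGGgCCACG
Dnajb11 (ERSE-II, 8 to 18, after the start): ATTGGcCCACG

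The 250 bases before the start are given for 3 members whose transcripts went different ways below: Hspa5, which carried an ERSE and rose, Syvn1, which carried one and fell, and Sec61b, which rose by a fold close to that of Hspa5 and held no match. Hspa5 is on the plus strand at chr2:34771840-34772089, Syvn1 on the plus strand at chr19:6046326-6046575 and Sec61b on the plus strand at chr4:47474411-47474660, with ERSE letters in capitals.
Hspa5: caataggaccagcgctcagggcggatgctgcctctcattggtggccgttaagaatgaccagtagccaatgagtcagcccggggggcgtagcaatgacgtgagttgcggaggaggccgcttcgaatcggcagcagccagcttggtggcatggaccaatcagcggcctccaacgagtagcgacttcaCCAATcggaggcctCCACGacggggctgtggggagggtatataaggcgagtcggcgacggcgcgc
Syvn1: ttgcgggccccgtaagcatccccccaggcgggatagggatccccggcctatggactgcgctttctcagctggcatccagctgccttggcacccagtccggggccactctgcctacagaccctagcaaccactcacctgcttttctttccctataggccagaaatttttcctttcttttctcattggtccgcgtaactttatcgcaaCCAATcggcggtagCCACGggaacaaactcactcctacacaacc
Sec61b: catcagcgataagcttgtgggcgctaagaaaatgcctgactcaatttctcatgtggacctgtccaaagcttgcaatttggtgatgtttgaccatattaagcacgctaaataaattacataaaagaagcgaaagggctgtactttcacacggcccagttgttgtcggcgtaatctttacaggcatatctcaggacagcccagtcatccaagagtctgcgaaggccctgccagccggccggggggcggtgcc

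Across the list, 28 of the 35 members were higher in BCR::ABL1+ cells, 3 were lower and 4 did not pass the test (edgeR's quasi-likelihood test, adjusted p under 0.05 over all genes tested). The groups differed broadly, with 59.5% of all tested genes called, 30.6% higher and 29% lower, so that the members' share of higher calls (80%) stood above that background and their share of lower calls (8.57%) below it. The median log2 fold change was 0.52 over the members and 0.07 over all genes tested. Higher by at least 1 on the log2 scale were 9 members, against 9.52% of all genes. In 19 members every CML library was above every CTRL library, against 17% of all genes, and in 3 every CML library was below, against 20.6%, which makes 22 members without overlap beside 37.6% of all genes. The members' summed level was 6355 to 7438 CPM in CTRL and 8733 to 14610 CPM in CML libraries. In bulk RNA a change in the make-up of the sorted cells and a change in the RNA of each cell cannot be told apart.

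**Figure D1:**
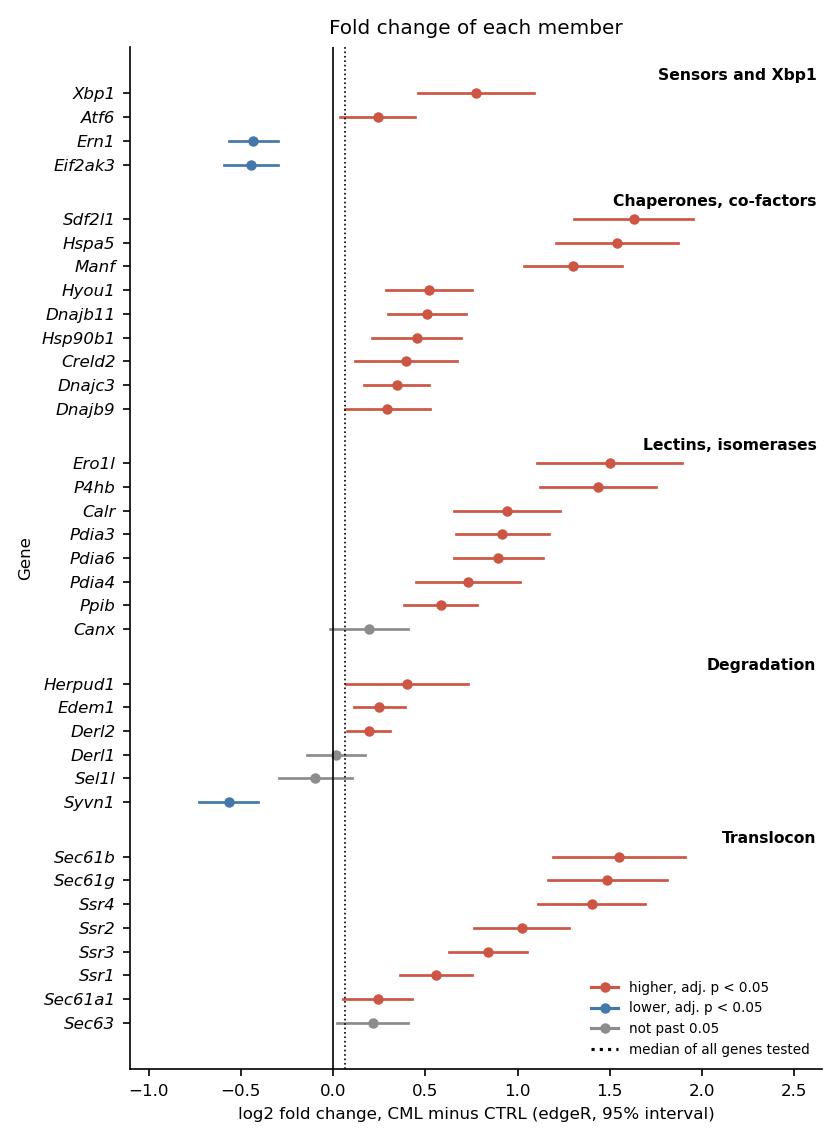
Log2 fold change (CML minus CTRL, x axis) of each of the 35 members (y axis, by role), with points for the edgeR estimate and bars for its 95% interval; colour gives the call at adjusted p 0.05 and the dotted line the median of all genes tested, 0.07. Sdf2l1, Sec61b, Hspa5, Ero1l and Sec61g lie farthest to the right, and Syvn1, Eif2ak3 and Ern1 to the left of 0.

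The sensor genes Ern1 and Eif2ak3 were lower, Xbp1 was higher, and the rise of Atf6 was marginal. Ern1, the kinase and ribonuclease that splices Xbp1, was at a lowest, median and highest of 172, 188 and 191 CPM in CTRL libraries and 119, 136 and 151 CPM in CML libraries. Eif2ak3, the kinase that acts on eIF2alpha, was at 31.9, 36.9 and 37.5 CPM in CTRL and 23.8, 26.4 and 28.7 CPM in CML libraries. For both kinases every CML library lay below every CTRL library. Ern1 was 0.741 times the CTRL level (log2 -0.43 ± 0.062 SE, edgeR adjusted p = 3.28e-05) and Eif2ak3 0.734 times (log2 -0.45 ± 0.068, adjusted p = 5.55e-05). The median log2 fold change of all genes of similar coding length was -0.34, as set out below. Xbp1, the transcription factor whose transcript Ire1 splices, went the other way, from 76, 84.3 and 92.9 CPM in CTRL to 101, 145 and 210.2 CPM in CML libraries with no overlap. CML replicate 2 was the highest for Xbp1 and replicate 5 the lowest. The fold was 1.71 (log2 0.77 ± 0.15, adjusted p = 0.000366). Atf6, the membrane-bound transcription factor, was at 87.8, 98.7 and 103 CPM and 93.8, 113 and 137 CPM, and 4 of the 6 CML libraries were above the highest CTRL library. Its rise was small (log2 0.24 ± 0.10, edgeR adjusted p = 0.04), and its adjusted p ranged from 0.00539 to 0.192 over the alternatives.

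**Figure D2:**
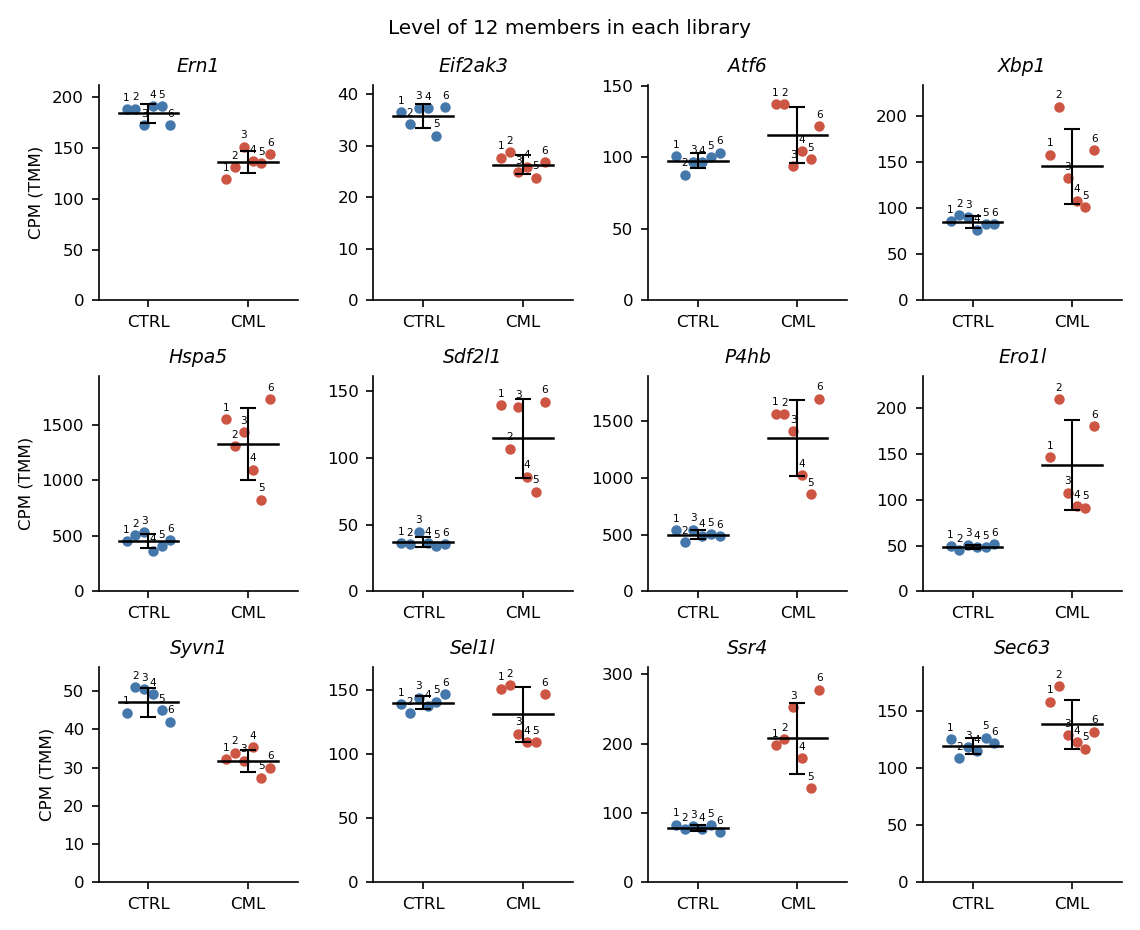
Level in CPM after TMM scaling (y axis, from 0) of 12 members in each library; points are libraries with their replicate number, and the line and bars are the mean and SD of 6 libraries. Ern1, Eif2ak3 and Syvn1 sit lower in all CML libraries, Xbp1, Hspa5, Sdf2l1, P4hb, Ero1l and Ssr4 sit higher, and Atf6, Sel1l and Sec63 overlap between the groups.

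All 9 ER chaperones and their co-factors were higher, 5 of them with no overlap between the groups, and the median log2 fold change was 0.51. Hspa5, which encodes BiP, the Hsp70 of the ER lumen, was at a lowest, median and highest of 367, 456 and 535 CPM in CTRL and 824, 1368 and 1729 CPM in CML libraries. That is a 2.91-fold rise (log2 1.54 ± 0.15, 95% interval 1.21 to 1.87, edgeR adjusted p = 1.10e-06). The lowest CML library, replicate 5, was at 824 CPM, and the highest CTRL library, replicate 3, at 535 CPM. Sdf2l1, a small partner of the BiP and DnaJ complex, had the largest fold of the list, 3.1 (adjusted p = 5.37e-07), with 33.7 to 44.7 CPM in CTRL and 74.7 to 142 CPM in CML libraries. Manf, a secreted protein that binds BiP, was at 52.5 to 66.9 CPM in CTRL and 107 to 189 CPM in CML libraries, 2.46-fold higher (adjusted p = 7.37e-07). These 3 genes were apart from the other chaperones, whose log2 fold changes lay between 0.29 and 0.52. Hyou1, a large Hsp70 relative that exchanges the nucleotide of BiP, was at 226 ± 15 CPM in CTRL and 324 ± 62.6 CPM in CML libraries (SD, n = 6). Dnajc3, a DnaJ co-chaperone also known as P58IPK, was at 176 ± 7.86 and 223 ± 31.2 CPM, and both genes had no overlap. Hsp90b1, the ER Hsp90 called Grp94, was at 431 ± 39.7 and 589.6 ± 108 CPM, with CML replicate 5 among the CTRL values.

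Dnajb11, a DnaJ co-chaperone of BiP, rose 1.42-fold, with 5 of 6 CML libraries above all CTRL libraries. Dnajb9, another co-chaperone, was at 31.4 to 44.8 CPM and 35.2 to 54.9 CPM and its call was marginal (log2 0.29 ± 0.11, edgeR adjusted p = 0.0297, 0.00563 to 0.124 over the alternatives). Creld2, an ER protein of the isomerase network, rose 1.31-fold in the fit, and CML replicate 2 (22.3 CPM) was below every CTRL library while the other 5 were above all of them. Exons of Hsp90b1 are covered over 10.3% of their length by an antisense gene and share sequence with another gene over 3.71% of 50-base windows. The strand setting of the counts is not given, so that the level of Hsp90b1 is less certain than that of Hspa5. The same limit holds for Ssr2, Manf, Sec61a1 and Eif2ak3, where antisense exons cover 12.8%, 8.85%, 8.16% and 8.05% of the exon length.

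Of the lectin chaperones, isomerases and oxidases, 7 of 8 were higher with no overlap between the groups and 1, Canx, did not pass the test. P4hb, the protein disulphide isomerase PDI, was at a lowest, median and highest of 436, 498 and 543 CPM in CTRL and 855, 1486 and 1698 CPM in CML libraries, 2.7-fold higher (log2 1.43 ± 0.15, edgeR adjusted p = 1.28e-06). Ero1l, the oxidase that recharges PDI, was at 44.8, 48.9 and 51.2 CPM and 91.4, 127 and 209.6 CPM, 2.83-fold higher (log2 1.50 ± 0.18, adjusted p = 7.06e-06). In both genes the lowest CML library was replicate 5 and lay well above the CTRL range, and Ero1l was highest in CML replicate 2. The isomerases Pdia3, Pdia6 and Pdia4 rose 1.89-, 1.86- and 1.66-fold. For Pdia3, which works with the lectin chaperones, the ranges were 378 to 489 CPM and 588 to 1053 CPM. Pdia4 came closest to overlapping, with CML replicate 5 at 151 CPM and the highest CTRL library at 149.7 CPM.

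The lectin chaperones Calr and Canx, bind the same kind of glycan in the lumen and in the membrane. Calr was at 789.8, 1011 and 1055 CPM in CTRL and 1216, 1873 and 2286 CPM in CML libraries, 1.92-fold higher (log2 0.94 ± 0.13, 95% interval 0.65 to 1.23, edgeR adjusted p = 2.97e-05). Canx was at 761, 883 and 926 CPM and 817, 986 and 1185 CPM, and 3 of 6 CML libraries were above the CTRL range. Its log2 fold change was 0.19 with a 95% interval of -0.02 to 0.41 (adjusted p = 0.104), which does not overlap that of Calr; the difference between the genes was not tested. Ppib, the ER cyclophilin, was at 66.6 to 83.5 CPM in CTRL and 96.3 to 141 CPM in CML libraries. Exons of Snx22 on the other strand cover 25% of the exon length of Ppib, and Snx22 itself fell (log2 -1.41, edgeR adjusted p = 0.00405).

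Among the 6 genes of ER-associated degradation (ERAD), Herpud1, Edem1 and Derl2 were higher, Syvn1 was lower, and Sel1l and Derl1 did not pass the test. Syvn1, the ubiquitin ligase Hrd1 at the centre of the pathway, was at a lowest, median and highest of 42, 47.2 and 51.1 CPM in CTRL and 27.3, 32.1 and 35.4 CPM in CML libraries, with every CML library below every CTRL library. It had the largest fall of the list, to 0.675 of the CTRL level (log2 -0.57 ± 0.075, edgeR adjusted p = 1.50e-05). Sel1l, the partner that holds Hrd1 in its complex, was at 132, 140.2 and 147 CPM and 109, 132 and 154 CPM. Its CML libraries split around the CTRL range, with replicates 1, 2 and 6 above it and 3, 4 and 5 below it, and the log2 fold change was -0.10 (95% interval -0.29 to 0.10, adjusted p = 0.389).

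The rises within ERAD were small. Herpud1, which recruits Hrd1 complexes and is a classical UPR target, was at 60.3, 68.5 and 81.7 CPM and 64.8, 90.6 and 136 CPM, with 4 of 6 CML libraries above the CTRL range (log2 0.40 ± 0.16, edgeR adjusted p = 0.0372). Without CML replicate 6, at 136 CPM, its log2 fold change was 0.25 (adjusted p = 0.106). The call was also lost without CML replicate 1 or 2, or without CTRL replicate 1, 4, 5 or 6 (edgeR adjusted p = 0.0611 to 0.0813). Over all alternatives its adjusted p ranged from 0.0112 to 0.161. Edem1, which directs trimmed glycoproteins to degradation, was at 111 to 125 CPM and 124 to 156 CPM and rose 1.19-fold. Derl2, a membrane protein of the export channel, was at 42.9 to 47.3 CPM and 45.7 to 54 CPM and rose 1.14-fold (adjusted p = 0.00805). Its relative Derl1 was at 87.7 to 97.9 CPM and 86.1 to 115 CPM, with a log2 fold change of 0.02 (95% interval -0.14 to 0.17).

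In the translocon group 7 of 8 genes were higher, 6 of them with no overlap. The median log2 fold change, 0.93, was the highest of the 5 groups, close to the 0.91 of the lectin chaperones, isomerases and oxidases. Several translocon genes have short coding sequences, for which the fold change of all genes ran higher, as set out below. Ssr4, a subunit of the translocon-associated protein (TRAP) complex that helps proteins through the channel, was at a lowest, median and highest of 72.3, 78.9 and 83.2 CPM in CTRL and 135, 202 and 278 CPM in CML libraries, 2.64-fold higher (log2 1.40 ± 0.14, edgeR adjusted p = 7.79e-07). The other TRAP subunits Ssr2, Ssr3 and Ssr1 rose 2.03-, 1.79- and 1.47-fold, all with no overlap. The small channel subunits rose as much as Ssr4: Sec61b was at 53.8 to 68.9 CPM in CTRL and 127 to 271 CPM in CML libraries (2.93-fold). Sec61g was at 17.3 to 20.7 CPM and 38.9 to 77.7 CPM (2.8-fold). The large subunit Sec61a1, which forms the pore, was at 182, 198 and 205 CPM and 197, 235 and 265 CPM. Its log2 fold change was 0.24 (95% interval 0.06 to 0.43, edgeR adjusted p = 0.0265, 0.00258 to 0.165 over the alternatives), and 2 CML libraries were inside the CTRL range. Sec63, a J-domain partner of the channel, was at 109 to 127 CPM and 117 to 172 CPM and just missed the threshold (log2 0.21 ± 0.09, adjusted p = 0.0513).

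The counts of the small channel subunits are uncertain, because 50.4% of the 50-base windows of the Sec61b transcript and 52.6% of those of Sec61g occur in another gene or pseudogene, and how reads that match several places were counted is not given. The copies of Sec61b held at most 7 counts in any library. Of the copies of Sec61g, Gm10177 held 11 to 28 counts in CTRL and 23 to 104 in CML libraries, against at least 444 for Sec61g itself. Ssr4 shares no such window. The part of shared reads in the rises of Sec61b and Sec61g was not tested.

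Levels per kilobase of exon differed widely between the genes. Calr stood highest in CTRL libraries, at a mean of 335 CPM per kilobase of summed exons, followed by Canx at 184, P4hb at 175 and Pdia3 at 143. Derl2, at 5.65, and Eif2ak3, at 5.94, were the lowest. Summed exons cover all annotated transcripts of a gene and came to 8049 bases for Derl2 and 10431 for Ssr1. The transcript with the longest coding sequence has 884 and 1610 bases in these genes. The order of the genes thus depends on the length used. In CML libraries P4hb, at 473 CPM per kilobase, Hspa5, at 313, and Pdia3, at 269.9, were above Canx, at 210.2, with Calr still highest at 643.

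Set beside these values, the promoter matches shown above did not sort the genes by size of change. The 8 members with an ERSE had log2 fold changes from -0.57 to 1.54, with 6 higher, 1 lower (Syvn1) and 1 not called (Canx). With ERSE-II included, 10 members had a median of 0.43, and the 19 members with neither had a median of 0.73. Sec61b, Sec61g, Ssr4, P4hb, Ero1l and Sdf2l1, each with a fold of 2.64 or more, held none of the 3 full motifs in the window. The half-site CCACG alone was found in 22 of the 29 members (75.9%) and in 32.7% of all windows, and Sdf2l1, P4hb and Ero1l were among those that held it. These medians are a description of small sets and no test was made.

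**Figure D3:**
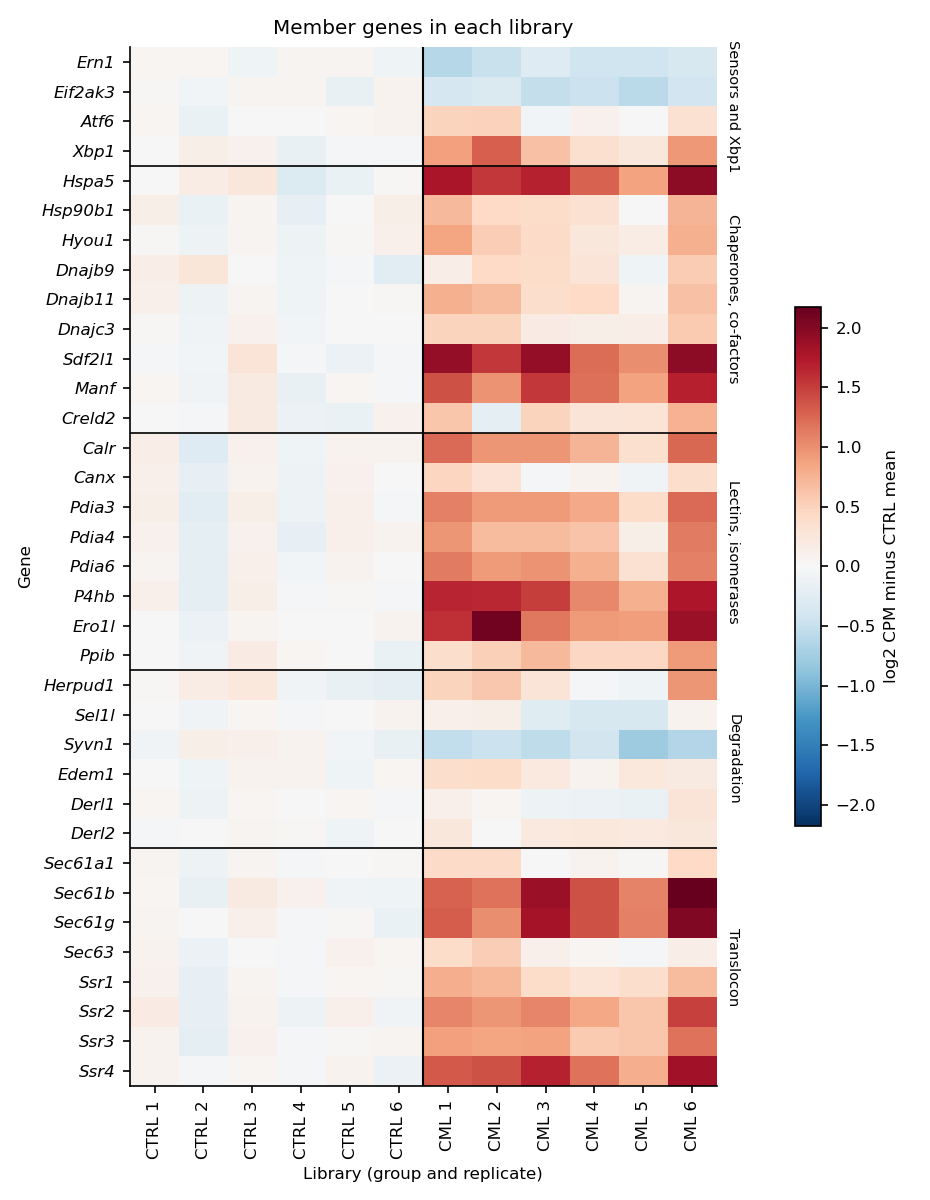
Log2 CPM of each member (rows, by role) in each of the 12 libraries (columns), as the difference from the mean of the 6 CTRL libraries (colour scale). CML replicate 6 is the deepest red over most genes and replicate 5 the palest, and Ern1, Eif2ak3 and Syvn1 are blue in all CML libraries.

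The CML libraries differed among themselves, and most members moved together. All members of a library share its TMM factor, and the part of that scaling was not tested. The mean over the 35 members, as log2 difference from the CTRL mean, was 0.88 in CML replicate 6, 0.74 in replicate 1, 0.67 in replicate 2, 0.62 in replicate 3, 0.45 in replicate 4 and 0.27 in replicate 5, against -0.08 to 0.09 in the CTRL libraries. CML replicate 6 held the highest CML value of 20 members and replicate 5 the lowest of 24. The SD between replicates, on the log2 scale, was larger in CML than in CTRL for all 35 members (median 0.275 against 0.11), as it was for 16888 of the 18438 genes tested. Among the 8059 tested genes with a mean level at or above that of the lowest member, the median was 0.178 in CML and 0.0876 in CTRL libraries. A different library led in some genes, with CML replicate 2 the highest for Xbp1, Ero1l, Atf6, Eif2ak3, Sel1l, Edem1 and Sec63.

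Other gene groups varied between the same libraries. The primary granule proteins of immature neutrophils, Mpo, Elane, Prtn3 and Ctsg, a set of 4 chosen after their values were seen, summed to 8410 CPM in CML replicate 6, 6743 in replicate 2, 6324 in replicate 1, 5839 in replicate 3, 3533 in replicate 4 and 2988 in replicate 5, and to 1847 to 2524 CPM in CTRL libraries. The order of the CML libraries was that of the members apart from replicates 1 and 2. Both quantities were scaled by the same TMM factors. These were 0.9275, 0.9912, 0.9945, 1.0128, 1.0418 and 1.0654 in CML replicates 6, 2, 1, 3, 4 and 5, the order of the granule sums. The part of this shared scaling in the likeness of the orders was not tested. These 4 genes were all called higher, among them Ctsg at 133 to 211 CPM and 754 to 2016 CPM, and of the 10 granulocyte markers 5 were higher and 4, the later granule genes Ltf, Ngp and Camp and S100a9, lower. Of 8 monocyte markers 3 of the 7 tested were higher, and of 9 tested B and plasma cell markers 3 were lower and the remaining 6 did not pass, with a summed level of 29.4 to 392 CPM in CML and 451 to 827 CPM in CTRL libraries. The mast cell and basophil markers were highest in CML replicate 2, at 2273 CPM. Of the erythroid markers 5 of 6 were lower, of the megakaryocyte markers 5 of 5 tested, of the endothelial markers 1 of 4, and of the T and NK cell markers 2 of 5 tested were lower and 1 higher. Beside these marker counts, 30.6% of all tested genes were higher and 29% lower. The shares of B and plasma cell markers and of endothelial markers called lower were near the latter. None of the 74 marker genes was at 0 in all 12 libraries. The part of any of these cell types in the members' change was not tested. Without CML replicates 2 and 4, where stromal collagen genes were high, 26 members were higher and 3 lower, with a median of 0.56 (log2). Of all genes, 32% were higher and 32% lower in that setting.

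**Figure D4:**
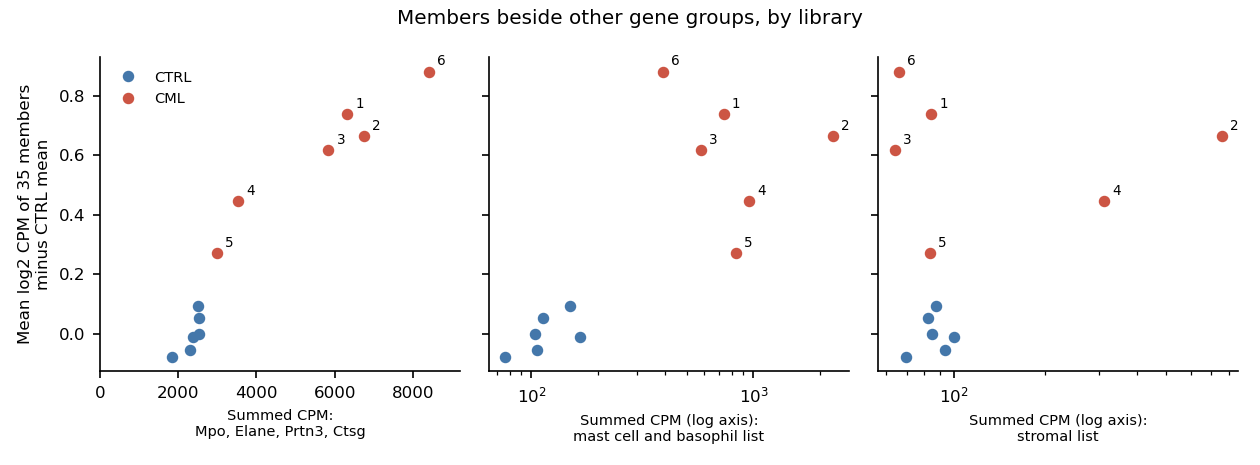
Mean log2 CPM of the 35 members minus the CTRL mean (y axis) against the summed CPM of 4 primary granule genes, of the mast cell and basophil list and of the stromal list (x axes, the latter pair on log axes); points are libraries, with CML replicate numbers. CML replicate 6 is highest on the y axis and in the primary granule sum (8410 CPM), and CML replicate 2 is highest in the remaining sums (2273 and 759.9 CPM). Both axes are scaled by the same TMM factors.

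The Perk branch was examined through 12 genes of the eIF2alpha and Atf4 pathway. Their transcript levels do not show whether Perk or another kinase acted on eIF2alpha. Of these, 5 (Eif2s1, Atf4, Atf5, Chac1 and Ddit4) were higher, 1 was lower and 6 did not pass the test. Of all tested genes, 30.6% were higher and 29% lower, and not all of the 5 calls held when a library was left out. Eif2s1, which encodes eIF2alpha itself, rose most evenly, from 119, 151 and 153 CPM in CTRL to 282, 367 and 454 CPM in CML libraries (2.64-fold, edgeR adjusted p = 1.43e-07). Ppp1r15a, the stress-induced subunit of the phosphatase that reverses eIF2alpha phosphorylation, fell from 13.1, 25.4 and 47.1 CPM to 8.66, 10.6 and 18.3 CPM (log2 -1.19 ± 0.27, adjusted p = 0.00179), and its constitutive counterpart Ppp1r15b did not pass (log2 -0.14, adjusted p = 0.0754). Atf4, Chac1 and Trib3 stood far higher in CML replicate 6 than in the other CML libraries. Atf4, the transcription factor translated when eIF2alpha is phosphorylated, was at 103 to 135 CPM in CTRL libraries, at 319 CPM in CML replicate 6 and at 125 to 178 CPM in the other 5. Chac1, a glutathione-degrading enzyme and Atf4 target, was below 0.5 CPM in every CTRL library, at 15.7 CPM in CML replicate 6 and at 0.938 to 2.99 CPM in the others. Trib3, a pseudokinase induced by Atf4, was at 42.7 CPM in CML replicate 6 and 1.69 to 5.95 CPM in the others, beside 2.08 to 4.58 CPM in CTRL, and did not pass the test (adjusted p = 0.0566). Without CML replicate 6 the log2 fold change was 0.30 for Atf4 (edgeR adjusted p = 0.00892, against 0.57 and 0.0168 with it), 2.42 for Chac1 (9.93e-05) and 0.02 for Trib3 (0.95). Without CML replicate 2 in its place, Trib3 was called higher (log2 1.71, edgeR adjusted p = 0.0439).

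Atf5, a relative of Atf4, showed the same library standing apart, at 41.1 CPM in CML replicate 6 and 7.58 to 21.2 CPM in the other CML libraries, against 7.47 to 8.75 CPM in CTRL, and without that library its call was lost (log2 0.47, edgeR adjusted p = 0.0902, against 1.00 and 0.0269). Ddit4, an inhibitor of mTORC1 signalling, was highest in CML replicate 2, at 41.4 CPM (log2 0.65 ± 0.26, edgeR adjusted p = 0.0401), and its call was lost without that library (log2 0.32, adjusted p = 0.106) or without replicate 6 (0.59, adjusted p = 0.0762). Ddit3, which encodes the factor Chop, was at 7.85 to 10.5 CPM in CTRL and 7.17 to 20.7 CPM in CML libraries and did not pass (adjusted p = 0.111), nor did Atf3 (adjusted p = 0.869), Nupr1 (0.115) or Sesn2 (0.29). The symbol Ddit3 matched 2 identifiers, and the values are those of a protein-coding entry alone. Without CML replicate 6, Sesn2, a stress-induced regulator of mTORC1, and Ppp1r15b were called lower (log2 -0.62 and -0.18, edgeR adjusted p = 0.00815 and 0.0309).

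Beyond the members and the Perk branch, the neighbouring pathways were read through fixed lists. Of 29 other folding genes tested, 18 were higher and 4 lower (median log2 0.55), beside 30.6% and 29% of all tested genes. Some of the 18 were low in every CTRL library and highest in CML replicates 2 and 4, where stromal collagen genes were high. Fkbp11, an ER prolyl isomerase typical of secretory cells, was at 2.87 to 3.63 CPM in CTRL and 11.3 to 35.5 CPM in CML libraries (6.19-fold, edgeR adjusted p = 8.78e-07), and Hspa13, an Hsp70 relative, and Pdia5 rose 2.8- and 2.06-fold. Cnpy3, a co-chaperone of Toll-like receptors, fell to 0.656 of the CTRL level, Fkbp9 to 0.726 and Ero1lb, the second ER oxidase, to 0.789. Ero1lb thus moved against its relative Ero1l, although the difference was not tested. Of 17 targeting and signal peptidase genes, 10 were higher and 2 lower, led by the signal recognition particle subunits Srp9 (2.1-fold) and Srp19 (2.09-fold) and the signal peptidase subunit Spcs1 (1.92-fold), while Tram2, a translocation factor, fell to 0.54 and Sec62, a partner of Sec63, to 0.839.

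Among 17 glycosylation genes, 8 were higher and 2 lower. Ostc, Ddost and Magt1, subunits of the oligosaccharyltransferase, rose 2.76-, 1.92- and 1.78-fold, and the glycan-trimming enzymes Ganab and Man1b1 fell to 0.745 and 0.792 of the CTRL level. Of the 22 other ERAD genes 7 were higher and 7 lower, shares close to those of all tested genes (30.6% and 29%), with a median log2 of -0.07. Selenos, which links the export channel to the ATPase p97, rose 2.88-fold, the lectin Erlec1 1.41-fold and Selenok 1.38-fold. Vcp, which encodes p97, fell to 0.723, its adaptor Nploc4 to 0.734 and the lectin Os9 to 0.774. Of 8 other sensor and protease genes 3 were higher and 3 lower. Some of the higher ones were low in CTRL libraries and highest in CML replicate 2. Mbtps2, a protease that cuts Atf6, rose 1.32-fold, while Mbtps1, the protease that cuts before it, fell to 0.812, the Atf6 relative Atf6b to 0.792 and Creb3l2 to 0.777. In all, 51 of the 105 genes tested in these lists, the Perk branch included, were higher and 19 lower, with a median log2 of 0.35, beside 30.6% and 29% of all genes.

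Over all genes the fold change moved with coding length, and the members differ in coding length. Among 13062 genes with a coding length, the median log2 fold change fell from 0.40 in the shortest of 10 equal bins to -0.42 in the longest, and the share called higher from 51.9% to 8.42%. Sec61b, Sec61g and Ssr4 were in the shortest bin, where their log2 fold changes of 1.55, 1.49 and 1.40 stood beside that median of 0.40. Ern1 (-0.43) and Eif2ak3 (-0.45) were in bin 9, whose median was -0.34, so that their log2 fold changes lay -0.09 and -0.11 from the median of genes of their own length. Syvn1 lay at -0.34 from the median of its own bin. Hspa5, P4hb and Ero1l are not short and lay 1.77, 1.60 and 1.66 above theirs. Over the list, 31 of 35 members were above the median of their bin, and the median difference over all 35 was 0.51. The part of transcript length in these differences was not tested.

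**Figure D5:**
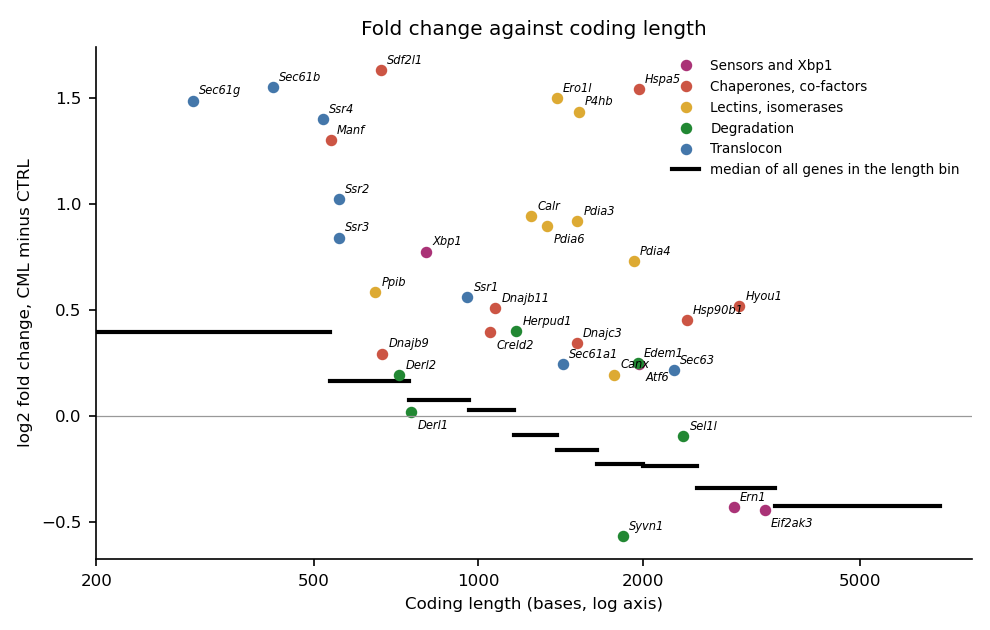
Log2 fold change (CML minus CTRL, y axis) of the 35 members against their longest annotated coding length (x axis, log scale), coloured by role; black lines are the medians of all genes tested in each of 10 bins of coding length, the first and last drawn only in part. The lines fall from 0.40 to -0.42, and Hspa5, P4hb and Ero1l lie far above them while Ern1 and Eif2ak3 lie near theirs.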

How the data were processed

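Bulk RNA-seq of Lin-Sca+Kit+ BM cells was analysed in 12 libraries, 6 BCR::ABL1- (CTRL) and 6 BCR::ABL1+ (CML), grouped by their titles. The authors deposited raw read counts per Ensembl gene, 1 table per library. The submitters' processing notes name FastQC 0.11.9, fastp 0.23.2, STAR 2.7.10a, featureCounts 2.0.1 and DESeq2 1.36.0 with mm39 (GRCm39), whereas the study's methods name Trim Galore!, HISAT2 and a human build for bulk RNA-seq; the identifiers counted are those of mouse. Which annotation and strand option were used, and how reads matching several places were counted, is not given in the sources used here, which leaves overlapping genes and near-identical copies uncertain.

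Symbols were matched by Ensembl identifier (52073 of 56748). Members, gene lists and tests were chosen with earlier results of these data known. Counts were tested with edgeR 4.0.16 (R 4.3.3) on all 12 libraries: filterByExpr, TMM factors, the quasi-likelihood test of CML minus CTRL, Benjamini-Hochberg adjustment over the 18438 genes that passed and a threshold of 0.05. Log2 CPM used a prior count of 2. On simulated counts for 18171 genes, 6 libraries against 6, the fit called 60 of 93 genes changed by 1 on the log2 scale. It called 101 of 103 changed by 2 and 11 of 17975 unchanged genes. The simulation gave both groups the same variation and changed few genes. In the data the fitted variation was 10.8% in CTRL and 32.6% in CML, and 59.5% of genes were called. These rates therefore cannot be carried over to the data. Alternatives were a replicate block, upper-quartile and DESeq2 size factors, library totals, DESeq2 1.42.0, limma 3.58.1 (voom with quality weights), other count filters, a threshold of 0.01 and left-out libraries; the bins of coding length and the Perk branch without a library were added after the data were seen. No 2 libraries of a group agreed within sampling noise (lowest chi-square per degree of freedom 4.07).

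Named genes were all 35 members, the 12 genes of the Perk branch and, in each other pathway list, up to 3 in each direction with the largest change among those past the threshold and with a mean log2 CPM of at least 1; Tusc3 was not analysed here. Promoter windows (RefSeq, GRCm38.p6) and GENCODE M21 transcripts, of an older build than the counts, served for sequence, length and sharing of 50-base windows. The limit that a count of 0 allows (3 counts) came to 0.0717 to 0.186 CPM (counting error only).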

Additional observations from a re-analysis of the deposited data

Results flagged for a closer look

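In each of the 70 groups of 6 values (35 members in CTRL and in CML libraries), the gap between the most extreme library and its nearest neighbour was compared with the range of the group, and 2 groups passed Dixon's 95% critical value; chance flags about 1 in 20 groups, or 3.5 here. Sdf2l1 stood out in CTRL replicate 3, at 44.7 CPM, with the next library at 36.3 CPM (gap 0.767 of the range). Derl2 was lowest in CML replicate 2, at 45.7 CPM, with the next library at 52.4 CPM (gap 0.81 of the range). CTRL replicate 3 also held the highest CTRL value of 14 members, and CML replicate 2 was the library with the highest stromal and mast cell sums.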

How the results depend on the processing

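Over the alternatives, 21 to 30 members were higher and 3 were lower in each, and the members' median log2 fold change was 0.45 to 0.59. The 3 lower members were Ern1, Eif2ak3 and Syvn1, whose adjusted p stayed at or below 0.00084 in every alternative. With no filter on low counts 21 members were higher, and with both replicate 6 libraries left out 24. Of all genes, 15.4% and 28.5% were higher in those settings. Without each library in turn, 24 to 30 members and 46 to 56 genes of the other pathway lists were higher, and 3 members and 17 to 21 list genes lower. Of all genes, 27.6% to 32.5% were then higher and 26.7% to 31.8% lower. At a threshold of 0.01, 23 members were higher and 12 of the list genes lower in place of 19. The share of all genes at that threshold is not given here. With the replicate block 26 members were higher and 3 lower, and 46 list genes were higher and 17 lower. Of all genes, 26% were higher and 28.1% lower in that setting. Same-numbered libraries had correlations of -0.125 to 0.068, and 1 of 6 CTRL libraries correlated best with its own number. The numbers were not taken as pairs. Derl1, near 0 throughout, turned to -0.013 with limma, -0.0552 with no filter and -0.0384 with both replicate 6 libraries left out, and ranged from -0.0526 to 0.0434 when 1 library was left out. Calls of Atf6, Dnajb9, Creld2, Herpud1, Edem1, Derl2 and Sec61a1 were lost under at least 1 of the other alternatives, of these Creld2, Edem1 and Derl2 at the 0.05 threshold only with no filter (adjusted p = 0.0644, 0.0673 and 0.177), and Canx and Sec63 were called under some, at the lowest with upper-quartile factors (0.016 and 0.00681); the cause was not tested. Of 420 values with 1 library left out, 384 kept their call and direction. A call was lost in 29 of them, all from 4 members: Atf6, Dnajb9, Herpud1 and Sec61a1. The calls of these 4 thus failed far more often than those of Creld2, Edem1 and Derl2. At this spread between libraries, differences as small as that of Derl1 could not be told from 0.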
